A study of Homo sapiens with 40 samples.

Results

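Open chromatin was described around the 9 genes of the luminal lineage transcription factors FOXA1, GATA3, TFAP2A, TFAP2B, TFAP2C, SPDEF, ELF3, GRHL2 and XBP1 in trastuzumab-sensitive and trastuzumab-resistant breast cancer cells. The peaks of all 40 ATAC-seq lists were merged where they overlapped by at least 1 bp, regions found in at least 2 lists were kept, and a region belonged to a gene if its midpoint lay in the gene body or within 50000 bp of it. Of 71600 regions in all, 103 belonged to these loci, and regions were assigned to the genes by position only, not by any measured value. The genes themselves were chosen by function, with earlier results of these data known. Regions are numbered within each locus from the lower to the higher coordinate.

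BT474 is a HER2-amplified breast ductal carcinoma cell line, and BT474R is BT474 clone 5, a single clone grown out of BT474 under trastuzumab, the antibody against HER2, so that differences between the lines are differences between 1 parental population and 1 clone. In each line, cells were serum starved and collected at once (baseline, 0 h) or treated with EGF (the ligand of EGFR), HRG (heregulin, the ligand of HER3) or vehicle water (control) for 1, 12 or 24 h. Starvation was shared by all groups, including the controls, and the labels gave no other agent and no genetic change. There were 20 groups of 2 libraries. Treatments were made in duplicate according to the methods. Whether the duplicates were independent cultures was not stated, so that p-values measure the spread between these libraries, which may be partly technical.

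Luminal epithelial cells of the breast are kept in their identity by a small set of factors. FOXA1, a forkhead pioneer factor, opens compacted chromatin for other factors, GATA3 is a zinc finger factor required for luminal differentiation, and the AP-2 proteins TFAP2A, TFAP2B and TFAP2C bind many of the same enhancers in luminal tumours. SPDEF and ELF3 are epithelial members of the ETS family, GRHL2 is a grainyhead factor that keeps cell junction genes active, and XBP1 is the bZIP factor of the unfolded protein response, closely tied to estrogen receptor activity in breast cancer.

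The reference sequences below are the central 300 bp of distal regions among those with large differences between the lines, shown so that the elements can be read beside their values. They were chosen after their values were seen, from distal regions free of exons with at least 60 percentage points between the lines in libraries with a peak, or at least 18 rank points between them. All those shown were open in fewer BT474R libraries or ranked lower there. Regions that went the other way, such as XBP1 region 13 and SPDEF regions 1 and 11, are not shown. FOXA1 region 18 and TFAP2A region 1, also lower in BT474R, are not shown either. All are on the + strand of GRCh38, written 5′ to 3′, and capitals mark matches on either strand to short motifs of the members' own families. The AP-2 motif was searched as GCCNNNGGC. The ETS family motif, which the proteins of SPDEF and ELF3 recognise, was searched as CGGAAG. The forkhead motif, known from FOXA1 and its relatives, was searched as TGTTTAC. For the zinc finger family of GATA3 the letters searched were AGATAA, and for bZIP proteins such as the product of XBP1 they were TGACGT. A match is a description of the letters and not evidence of binding.
GATA3 region 2, chr10:8050091-8050390, open in 19 BT474 and 2 BT474R libraries: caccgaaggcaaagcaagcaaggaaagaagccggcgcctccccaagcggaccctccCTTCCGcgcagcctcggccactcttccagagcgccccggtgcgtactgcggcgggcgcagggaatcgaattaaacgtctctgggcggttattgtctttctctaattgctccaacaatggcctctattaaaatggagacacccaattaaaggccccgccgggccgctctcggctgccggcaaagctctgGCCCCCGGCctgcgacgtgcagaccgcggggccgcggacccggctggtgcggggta
GATA3 region 5, chr10:8061574-8061873, open in 19 BT474 and no BT474R library: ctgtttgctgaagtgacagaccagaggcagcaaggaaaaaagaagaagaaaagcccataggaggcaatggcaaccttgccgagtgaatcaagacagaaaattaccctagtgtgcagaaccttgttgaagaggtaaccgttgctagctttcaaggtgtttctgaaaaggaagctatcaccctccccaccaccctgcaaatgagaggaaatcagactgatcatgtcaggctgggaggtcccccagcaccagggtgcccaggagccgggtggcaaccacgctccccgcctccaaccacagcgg
TFAP2A region 8, chr6:10426289-10426588, open in 20 BT474 and no BT474R library: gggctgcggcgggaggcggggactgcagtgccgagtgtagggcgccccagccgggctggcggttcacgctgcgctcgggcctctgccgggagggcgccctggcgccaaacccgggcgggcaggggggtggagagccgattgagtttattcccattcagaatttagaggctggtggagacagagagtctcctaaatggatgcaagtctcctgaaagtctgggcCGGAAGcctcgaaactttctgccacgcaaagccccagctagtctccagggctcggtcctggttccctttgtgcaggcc
TFAP2B region 2, chr6:50850334-50850633, open in 20 BT474 and no BT474R library: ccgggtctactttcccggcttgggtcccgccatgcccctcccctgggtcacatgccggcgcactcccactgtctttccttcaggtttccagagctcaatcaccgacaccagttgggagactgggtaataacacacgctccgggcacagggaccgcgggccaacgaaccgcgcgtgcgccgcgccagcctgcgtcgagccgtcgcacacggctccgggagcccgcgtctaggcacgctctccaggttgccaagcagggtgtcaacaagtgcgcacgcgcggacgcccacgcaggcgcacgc
TFAP2C region 11, chr20:56683232-56683531, open in all 40, lower rank in BT474R: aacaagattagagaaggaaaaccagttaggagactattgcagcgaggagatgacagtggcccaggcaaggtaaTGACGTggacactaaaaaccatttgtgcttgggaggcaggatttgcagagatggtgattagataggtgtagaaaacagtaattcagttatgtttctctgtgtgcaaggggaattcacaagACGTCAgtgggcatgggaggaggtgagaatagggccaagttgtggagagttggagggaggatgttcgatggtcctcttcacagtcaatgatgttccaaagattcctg
SPDEF region 12, chr6:34598674-34598973, open in 18 BT474 and 1 BT474R libraries: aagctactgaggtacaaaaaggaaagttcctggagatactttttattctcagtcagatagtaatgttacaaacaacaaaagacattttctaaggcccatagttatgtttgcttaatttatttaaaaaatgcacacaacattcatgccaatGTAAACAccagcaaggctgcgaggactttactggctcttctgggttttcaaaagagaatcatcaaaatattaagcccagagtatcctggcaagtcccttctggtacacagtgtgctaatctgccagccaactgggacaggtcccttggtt

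2 measures were used. A library counted as open where at least 1 of its peaks fell in the region, and presence was compared by applying Fisher's exact test to the counts of open libraries, with Benjamini-Hochberg adjustment over all regions that varied. The rank percentile was the position of the region's highest-scoring peak among all peaks of its own library, 100 being the top, and it was compared with limma on the 25166 regions open in all 40 libraries. A call is an adjusted p under 0.05. The deposited lists carry no read counts, so that depth is unknown and a missing peak means only that no peak of sufficient score was listed. The lists held 47571 to 56846 peaks in BT474 and 32479 to 56494 in BT474R, and the 12 h control-BT474R lists were the shortest, at 32479 and 40331 peaks. The lines therefore differed in list length as well as in their cells, and the part of list length in the results below was tested only by the use of equal numbers of top peaks.

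The epithelial identity of the samples was checked on promoters. All 10 luminal marker genes, among them KRT8, KRT18, KRT19, EPCAM and CDH1, had an open promoter in all 40 libraries. Of 10 basal markers, 4 (KRT14, KRT17, SOX10 and CNN1) had no promoter peak in any library and 2 were open in all 40, and of 6 leukocyte markers 4 had none and CD14 had peaks in 13 BT474 libraries. Of 8 mesenchymal markers, 3 had none in any library, COL1A1 and TWIST1 were open in all 40, PDGFRB was open in 12 BT474 and no BT474R libraries, and FAP was open in 2 BT474 and 19 BT474R libraries. ACTA2, a smooth muscle actin gene listed as basal, was open in 17 BT474 and no BT474R libraries. These marker promoters moved with the line, and their part in the differences at the member loci was not tested.

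The member loci were densely and strongly open. Among the 103 regions, 53 (51.46%) were open in all 40 libraries, against 35.15% of all regions, and their median width was 897 bp against 551 bp. The median of their mean rank percentile was 52.84, against 22.6 over all regions. Promoters made up 23.3% of the members and 25.52% of all regions. The loci were not alike. At GATA3 only 1 of 7 regions (14.29%) was open in all 40 libraries and at TFAP2B 0 of 2, below the share of all regions. A library of BT474 was open at 77.4 ± 3.70 of the 103 regions (SD, n = 20, range 69 to 83) and a library of BT474R at 72.5 ± 6.51 (SD, n = 20, range 59 to 82). The rule chose genes by function, so that these shares, widths and ranks are a description with no test.

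**Figure D1:**
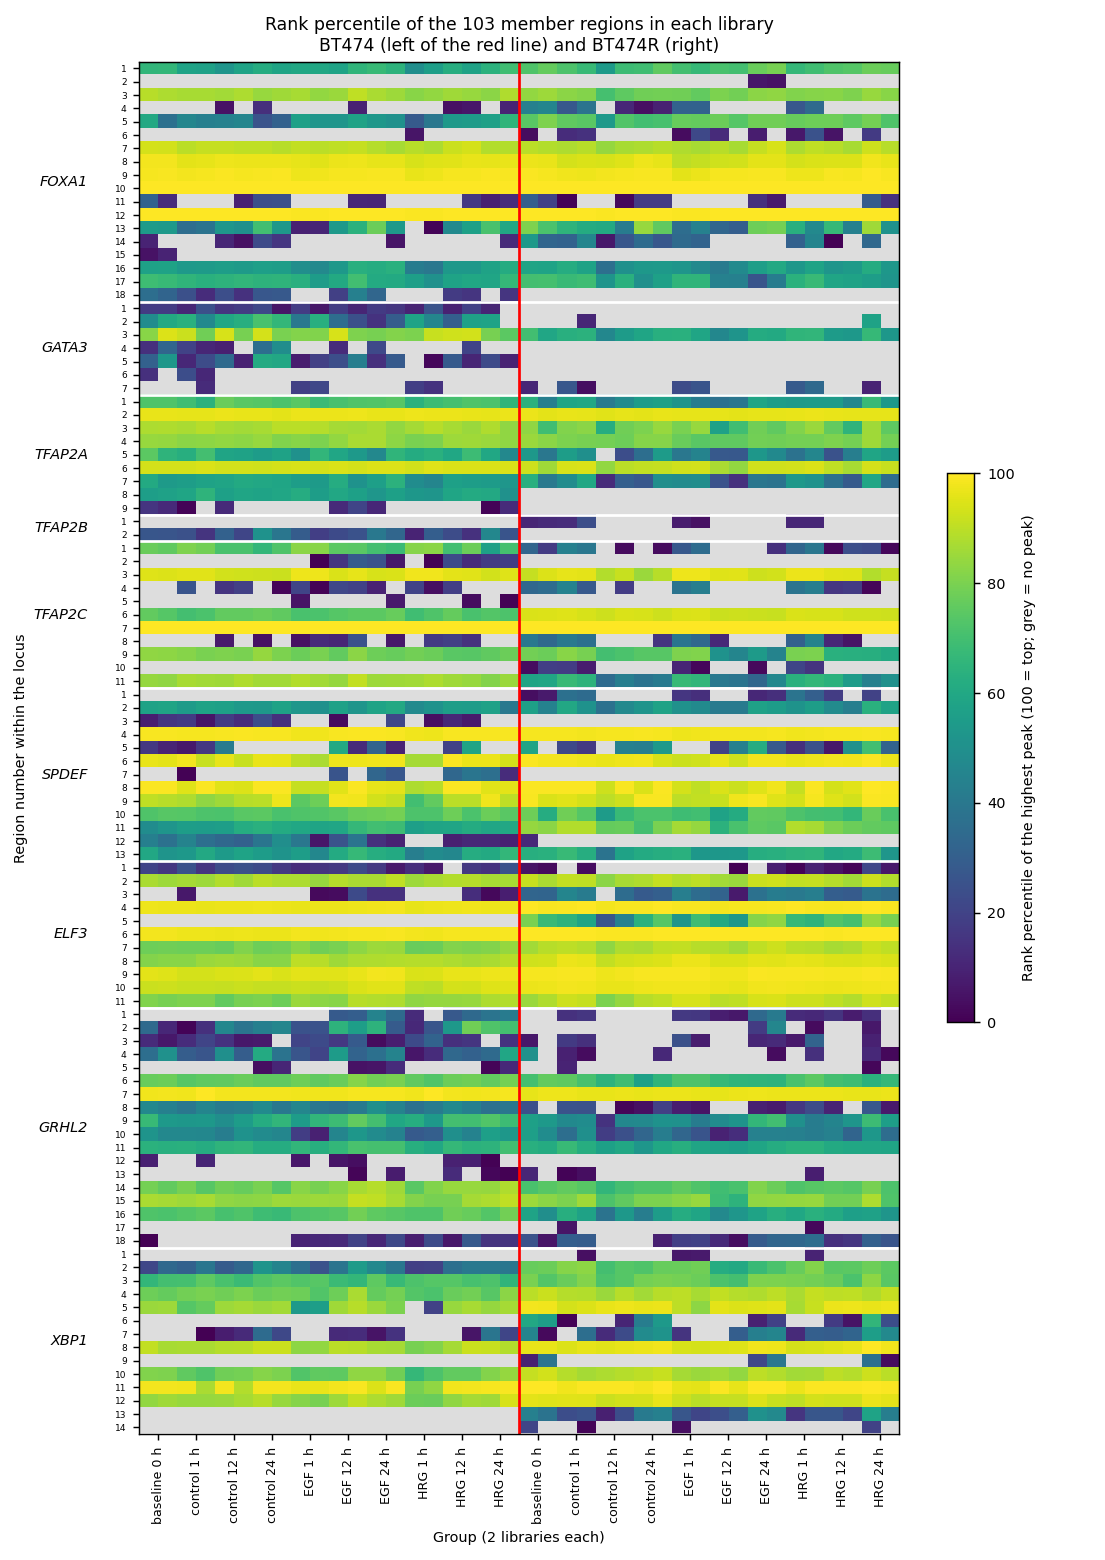
Each row is 1 of the 103 regions, ordered by locus and position, and each column is 1 of the 40 libraries, with BT474 left of the red line. Colour gives the rank percentile of the region's highest peak and grey marks a library with no peak, which fills most of the GATA3 rows in BT474R, the TFAP2A region 8 row in BT474R and the ELF3 region 5 row in BT474.

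Between the lines, the loci split by gene. GATA3, TFAP2A and GRHL2 were open at fewer regions or ranked lower in BT474R, XBP1 was open at more regions and ranked higher, ELF3 did so at all its called regions but 1, and FOXA1, TFAP2B, TFAP2C and SPDEF held regions of both kinds. Of the 50 member regions that varied in presence, 26 differed between BT474 and BT474R, 9 being open in more BT474R libraries and 17 in fewer. Over all 46434 regions that varied, 18.9% were open in more and 31.1% in fewer, so that the members' shares were close to the background. The members open in no BT474R library numbered 14 (13.6%, against 13.9% of all regions), and 11 were open in no BT474 library (10.7%, against 14% of all regions). Of the 53 regions open in every library, 46 differed in rank percentile, with 21 higher and 25 lower in BT474R, where 32.6% of all regions tested were higher and 50.2% lower. The balance of directions depended on the scale, being 26 higher and 20 lower on the log2 score, 22 and 16 with equal numbers of top peaks and 22 and 20 without the 12 h libraries. The median difference of BT474R minus BT474 was -0.13 points over the members and -1.51 points over all regions tested, and shifts of the whole list stand in every rank difference below.

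**Figure D2:**
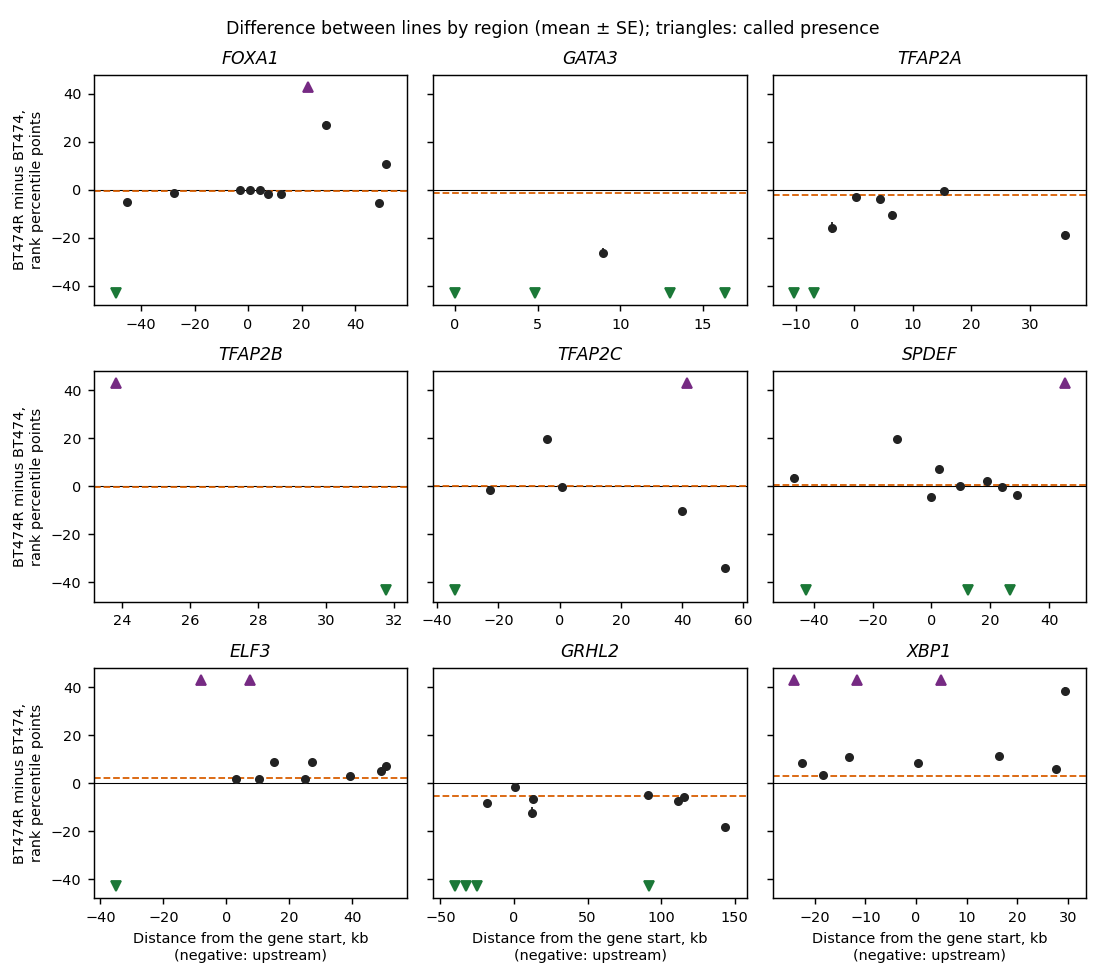
Each panel is 1 locus, with the distance from the gene start in kb on the x axis (negative upstream) and BT474R minus BT474 in rank percentile points (mean ± SE) on the y axis for regions open in all 40 libraries. The dashed line is the median difference of regions within 5 Mb outside the window, and triangles at the bottom and top mark regions open in fewer or more BT474R libraries. All tested ELF3 and XBP1 points lie above 0 and all tested TFAP2A and GRHL2 points lie below it.

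GATA3 was open at far fewer of its regions in BT474R than in BT474. The gene (ENSG00000107485.18, chr10:8045378-8075198, + strand) held 7 regions, and a library was open at 4.75 ± 1.02 of them in BT474 and at 1.5 ± 0.69 in BT474R (SD, n = 20 each). Region 1, at the most upstream start (chr10:8045017-8045758), was open in 19 BT474 libraries, with rank percentiles of 5.60 to 25.5 and a median of 17.1 where open, and in no BT474R library (adjusted p = 3.75e-09). The intronic region 2 (chr10:8049391-8051091) was open in 19 BT474 libraries, with a median of 57.2 where open, and in 2 BT474R libraries, control 1 h replicate 2 at 10.8 and HRG 24 h replicate 1 at 57.8 (adjusted p = 4.51e-07). The intronic region 5 (chr10:8061182-8062266) was open in 19 BT474 and no BT474R libraries (adjusted p = 3.75e-09), and region 4, at another annotated start (chr10:8057764-8059036), was open in 10 and none (adjusted p = 0.00135). The calls of regions 4 and 5 were lost with peaks of a score of at least 400 and with equal numbers of top peaks, where region 5 had an adjusted p of 0.0848 and 0.0794. Region 1, at rank percentiles of at most 25.5, had no peak left under either setting and could not be called there. The 2 downstream regions, 6 and 7, were open in 3 and 5 BT474 libraries and in none and 8 BT474R libraries and were not called.

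The main promoter region of GATA3, region 3 (chr10:8053345-8055311), was open in all 40 libraries but ranked lower in BT474R. Its rank percentile ran from 74.8 to 94.8 in BT474 with a median of 81.6, and from 46.3 to 69.7 in BT474R with a median of 59.97, so that the lines did not overlap. The difference was -26.2 ± 1.87 points (SE, limma, adjusted p = 6.85e-12). In BT474 the values fell into sets that followed the shape of the peak: 12 libraries with 2 separate peaks, the highest being 805 to 822 bp wide, stood at 74.8 to 82.1, and 8 libraries with a single joined peak of 1560 to 1957 bp stood at 91.6 to 94.8. In BT474R the highest peak was 528 to 805 bp wide in all 20 libraries. The score is an area that grows with the width of a peak, and the difference was therefore also taken on the score per base, where it was -27.4 ± 3.27 points (adjusted p = 6.26e-08). The regions within 5 Mb of the locus had a median difference of -1.53 points.

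**Figure D3:**
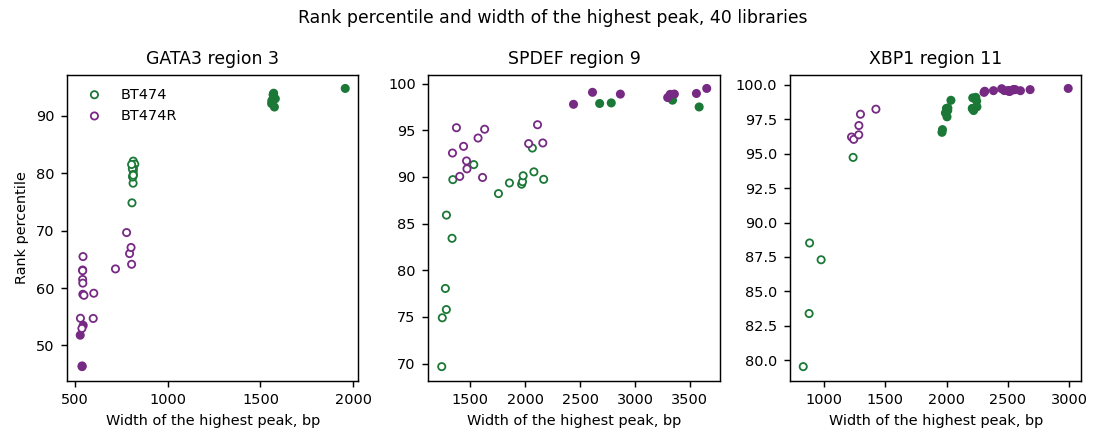
The rank percentile (y axis) is plotted against the width in bp of the highest peak (x axis) in the 40 libraries for GATA3 region 3, SPDEF region 9 and XBP1 region 11, with filled points for libraries with 1 peak in the region and open points for 2. Joined peaks stand above separate ones in both lines at SPDEF region 9 and XBP1 region 11 and in BT474 at GATA3 region 3, whereas in BT474R the 4 libraries with 1 peak at GATA3 region 3 stand at 46.3 to 53.5 and the 16 with 2 peaks at 52.95 to 69.7. At GATA3 region 3 every BT474R point lies below every BT474 point.

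TFAP2A (ENSG00000137203.15, chr6:10393186-10419659, - strand) was lower in BT474R across its locus. All 6 of its regions open in every library ranked lower, and 2 others were missing from BT474R. Region 8, 6.78 kb upstream of the gene start (chr6:10426023-10426855, shown above), was open in all 20 BT474 libraries at rank percentiles of 50.7 to 65.1 with a median of 57.7, and in no BT474R library (adjusted p = 2.71e-10). Region 9 was open in 9 BT474 and no BT474R libraries (adjusted p = 0.00347). The main promoter, region 2 (chr6:10403470-10405159), moved little: its medians were 96.7 and 96.3, and the difference of -0.44 ± 0.11 points was called (adjusted p = 0.00104) but not with equal numbers of top peaks (adjusted p = 0.238), without the 12 h libraries (adjusted p = 0.082) or in baseline and control groups only (adjusted p = 0.247). The other promoter regions fell by more, from a median of 87.1 to 79.2 at region 3, from 83.5 to 79.0 at region 4 and from 93.8 to 92.1 at region 6. The largest drop at this locus was in region 1, downstream of the gene (chr6:10383283-10384105), which ran from 63.9 to 76.9975 with a median of 72.0 in BT474 libraries and 37.4 to 67.3 with a median of 54.7 in BT474R libraries, a difference of -18.9 ± 1.53 points (adjusted p = 7.13e-11). Region 7, just upstream, fell by 15.8 ± 2.38 points (SE) from a median of 56.1 to 39.8. The flanking regions within 5 Mb had a median difference of -2.38 points and the locus one of -7.23 points.

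TFAP2B (ENSG00000008196.13, chr6:50818723-50847619, + strand), the AP-2 gene least open here, had no promoter peak in any of the 40 libraries. Its only 2 regions changed in opposite directions. Region 2, downstream of the gene (chr6:50850242-50850725, shown above), was open in all 20 BT474 libraries at rank percentiles of 9.99 to 51.0 with a median of 26.2, and in no BT474R library (adjusted p = 2.71e-10). The intronic region 1 was open in no BT474 and 8 BT474R libraries (adjusted p = 0.00832), with a median of 10.8 where open. These were the baseline libraries and the control, EGF and HRG libraries at 1 h, 2 of each, and no BT474R library was open there at 12 or 24 h. Both regions are low-ranking. The call of region 2 was lost with a score of at least 400 (adjusted p = 0.168) and with equal numbers of top peaks (adjusted p = 0.307). The peaks of region 1 scored only 216 to 322, and none was left under either setting, so that it could not be called there.

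TFAP2C (ENSG00000087510.7, chr20:56629306-56639283, + strand), the AP-2 gamma gene, had the highest-ranking promoter of the set and distal regions that moved in both directions. The promoter region 7 (chr20:56628319-56632165) ranked at 99.92 to 99.94 in BT474 and at 99.88 to 99.95 in BT474R, and its difference of -0.02 ± 0.03 points was not called (adjusted p = 0.612), though a percentile so near 100 leaves almost no room to rise. Region 6, 3.97 kb upstream (chr20:56624801-56625870), ran from 69.4 to 77.1 with a median of 73.7 in BT474 libraries and 91.6 to 95.2 with a median of 93.9 in BT474R libraries, without overlap, a difference of 19.8 ± 0.42 points (adjusted p = 5.5e-21). Region 11, downstream (chr20:56682854-56683910, shown above), went the other way: it ran from 81.4 to 90.6 with a median of 85.9 in BT474 libraries and 32.9 to 67.4 with a median of 52.5 in BT474R libraries, a difference of -33.9 ± 1.10 points (adjusted p = 4.05e-18). Region 9, also downstream, fell by 10.2 ± 0.78 points (SE, adjusted p = 2.07e-11) over all groups. Without the ligand groups, in baseline and control only, it fell by 5.54 ± 1.23 points (SE, adjusted p = 0.000328), and the controls at 1 h stood at means of 80.9 in both lines. Region 3, upstream, fell by 1.61 ± 0.36 points (SE, adjusted p = 0.000268). Region 10 was open in no BT474 and 9 BT474R libraries (adjusted p = 0.00347). Its peaks ranked low, and none was left with a score of at least 400 or with equal numbers of top peaks. Region 1 was open in 20 and 15 libraries, which was not called (adjusted p = 0.0848), although its median where open was 74.6 in BT474 and 24.1 in BT474R. The regions within 5 Mb had a median difference of 0.07 points.

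FOXA1 (ENSG00000129514.8, chr14:37589552-37596059, - strand) had a promoter of nearly the same rank in both lines. The main promoter, region 10 (chr14:37593906-37596746), ranked at 99.74 to 99.81 in BT474 and at 99.71 to 99.83 in BT474R, a difference of 0.00 ± 0.03 points (adjusted p = 0.965). Region 12 beside it, within TTC6, had medians of 99.71 in both lines (adjusted p = 0.424), and the exonic region 9 was not called either (adjusted p = 0.248). These regions too sit against the ceiling of the scale. Of the regions called, 5 of the 6 that changed in rank lay downstream of the gene. Region 5, 29.0 kb from the gene start within MIPOL1 (chr14:37566664-37567432), ran from 25.6 to 65.4 with a median of 51.2 in BT474 libraries and 54.2 to 80.5 with a median of 76.0 in BT474R libraries, and rose by 26.9 ± 1.74 points (SE, adjusted p = 1.18e-12). Region 1, further downstream, rose by 10.8 ± 1.13 points (SE), from a median of 59.96 to 71.6, whereas region 3 between them fell by 5.60 ± 0.58 points (SE), from 85.8 to 81.2. Region 8, next to the 3′ end of the gene, fell by 1.82 ± 0.15 points (SE), from a median of 96.5 to 94.7. The most distal upstream region, 18, within TTC6 (chr14:37645241-37645814), was open in 14 BT474 libraries, with a median of 24.2 where open, and in no BT474R library (adjusted p = 1.69e-05), a call that was lost with a score of at least 400 (adjusted p = 0.57) and with equal numbers of top peaks (adjusted p = 0.307). It lies 49.5 kb from the gene, just inside the window, and region 6 was open in 1 BT474 and 11 BT474R libraries (adjusted p = 0.00347). The locus median of -0.64 points was close to that of the regions within 5 Mb, -0.42 points.

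SPDEF (ENSG00000124664.11, chr6:34537802-34556333, - strand), an ETS factor of secretory luminal cells, had a promoter that ranked higher in BT474R and distal regions of both directions. The main promoter, region 9 (chr6:34552017-34555702), ran from 69.7 to 98.2 with a median of 89.6 in BT474 libraries and 89.9 to 99.5 with a median of 95.2 in BT474R libraries, a difference of 7.31 ± 0.84 points (adjusted p = 2.75e-08). The 4 BT474 libraries above 97 had a single peak of 2678 to 3585 bp and the other 16 had 2 peaks, and on the score per base the difference was 12.999 ± 4.10 points (adjusted p = 0.00794). Region 11, upstream (chr6:34567235-34568596), rose by 19.8 ± 0.91 points (SE), from a median of 59.1 to 78.6, but not on the score per base, where the difference was 0.23 ± 2.64 points (adjusted p = 0.948). Region 12, within ILRUN (chr6:34598547-34599101, shown above), was open in 18 BT474 libraries and in 1 BT474R library, a baseline one at 11.7 (adjusted p = 4.51e-07). Regions 3 and 7 were open in 13 and 8 BT474 libraries and in no BT474R library (adjusted p = 5.75e-05 and 0.00832), whereas region 1 was open in 12 BT474R libraries and in no BT474 library (adjusted p = 0.000178). The calls of regions 1 and 7 were lost with a score of at least 400 (adjusted p = 0.318 each), and that of region 7 without the 12 h libraries (adjusted p = 0.084). Region 3 ranked low, had no peak left with a score of at least 400 or with equal numbers of top peaks, and could not be called there. Region 4, the highest-ranking distal region, had medians of 99.0 and 98.6.

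ELF3 (ENSG00000163435.16, chr1:202007945-202017183, + strand), an ETS factor of differentiated epithelium, ranked higher in BT474R at most of its regions. All 8 of its regions open in every library were called higher, and a library was open at 9.40 ± 0.60 of its 11 regions in BT474 and at 10.5 ± 0.61 in BT474R (SD, n = 20 each). Region 5, at an internal annotated start (chr1:202014627-202016487), was open in all 20 BT474R libraries at rank percentiles of 26.3 to 84.5 with a median of 67.2, and in no BT474 library (adjusted p = 2.71e-10). The main promoter, region 4 (chr1:202007772-202014395), ran from 96.2 to 98.3 in BT474 libraries and 98.3 to 99.9 in BT474R libraries, a difference of 1.81 ± 0.11 points (adjusted p = 3.22e-13), and region 6, next to the 3′ end, ran from 97.0 to 98.9 and from 99.4 to 99.8, a difference of 1.57 ± 0.05 points (adjusted p = 5.3e-18). Further downstream, region 8 (chr1:202034273-202035612) ran from 81.4 to 89.9 with a median of 87.0 in BT474 libraries and 91.0 to 97.0 with a median of 94.8 in BT474R libraries, a difference of 8.70 ± 0.27 points (adjusted p = 1.84e-18), without overlap. Region 10 rose by 4.97 ± 0.15 points (SE), also without overlap. Region 3 was open in 9 BT474 and 19 BT474R libraries (adjusted p = 0.00347), whereas region 1 went the other way, being open in 19 and 11 (adjusted p = 0.0189). The low-ranking region 1 had no peak left with a score of at least 400 or with equal numbers of top peaks. On the score per base, regions 6, 8, 9, 10 and 11 stayed higher, while regions 2, 4 and 7 turned to -7.25, -0.81 and -2.79 points, none of them called. Neighbouring regions leaned the same way: those within 5 Mb had a median difference of 2.27 points, with 37.56% lower, against 4.00 points at the locus.

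GRHL2 (ENSG00000083307.12, chr8:101492439-101669726, + strand) was lower in BT474R at all 8 of its regions open in every library. Its promoter, region 7 (chr8:101491443-101494572), had medians of 98.1 and 96.9, a difference of -1.37 ± 0.16 points (adjusted p = 2.64e-08), which turned to 1.07 ± 0.32 points on the score per base (adjusted p = 0.00603). Region 16, at an internal start (chr8:101635556-101636465), ran from 67.7 to 78.9 with a median of 73.0 in BT474 libraries and 38.1 to 63.5 with a median of 57.3 in BT474R libraries, without overlap, a difference of -18.1 ± 1.29 points (adjusted p = 6.68e-12). Its drop on the score per base was -3.13 points and was not called (adjusted p = 0.462). Upstream, regions 2 and 4 were open in all 20 BT474 libraries and in 4 and 8 BT474R libraries (adjusted p = 1.05e-06 and 0.000178), and the intronic region 12 was open in 8 and none (adjusted p = 0.00832). Region 3 was open in 18 and 10 libraries (adjusted p = 0.0306). Without the 12 h libraries the calls of regions 3 and 12 were lost (adjusted p = 0.775 and 0.173). Of the regions within 5 Mb, 77.67% had a lower difference, with a median of -5.12 points against -7.02 points at the locus. What part the surroundings had in the locus was not tested.

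XBP1 (ENSG00000100219.17, chr22:28794555-28800597, - strand) ranked higher in BT474R at all 7 of its regions open in every library. Its promoter, region 8 (chr22:28799080-28802976), ran from 79.3 to 92.2 with a median of 88.0 in BT474 libraries and 93.6 to 99.8 with a median of 96.2 in BT474R libraries, without overlap, a difference of 8.35 ± 0.40 points (adjusted p = 5.63e-15). The largest rank difference among the 53 tested members was in region 2, a promoter of the neighbouring CCDC117 (chr22:28770880-28771717), which ran from 18.8 to 54.8 with a median of 37.5 in BT474 libraries and 60.3 to 82.96 with a median of 75.7 in BT474R libraries, a difference of 38.5 ± 1.42 points (adjusted p = 4.05e-17). Region 11, the highest-ranking distal region, had medians of 98.1 and 99.6. Its 5 BT474 libraries with 2 peaks stood at 79.5 to 94.7 and the 15 with a joined peak at 96.6 to 99.1. Region 13, upstream (chr22:28824327-28824841), was open in all 20 BT474R libraries at rank percentiles of 8.88 to 58.2 and in no BT474 library (adjusted p = 2.71e-10), and region 6, at an internal start, was open in 12 and none (adjusted p = 0.000178; 0.0848 with a score of at least 400 and 0.0794 with equal numbers of top peaks). Region 12 rose by 8.54 ± 0.64 points (SE) but turned to -4.68 points on the score per base (adjusted p = 0.0278). The regions within 5 Mb had a median difference of 3.21 points, with 28.37% lower, and the locus one of 8.54 points.

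Across the 46 rank calls between the lines, 29 held under each alternative setting that gave them a value and without each library in turn. The window of 10 kb, which changes only which regions are members, was not among these 9 settings. 22 of the 29 had a value in all 9, while GATA3 region 3, SPDEF region 9, ELF3 region 9 and XBP1 region 11 had none with peaks trimmed to 400 bp, and FOXA1 region 5, TFAP2C region 11 and XBP1 region 2 had none with equal numbers of top peaks. The 29 were GATA3 region 3, TFAP2A regions 1, 3, 4, 6 and 7, TFAP2C regions 3, 6, 9 and 11, FOXA1 regions 1, 3, 5 and 8, SPDEF regions 4 and 9, ELF3 regions 6 and 8 to 11, GRHL2 regions 6 and 15, and XBP1 regions 2, 3, 4, 8, 10 and 11. Of the 46, only the call of SPDEF region 2 (-3.54 ± 1.44 points, adjusted p = 0.0269) was lost when 1 library was left out. This held for HRG-BT474 24 h replicate 1, baseline-BT474R replicate 2, control-BT474R 1 h replicate 2 and control-BT474R 12 h replicate 1, with adjusted p between 0.0503 and 0.0536.

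The position cut-off of 50 kb left like regions just outside. Inside it, FOXA1 region 18 (49.5 kb from the gene, open in 14 BT474 and no BT474R libraries) was the outermost, and TFAP2C region 11 lay at 44.1 kb. Outside it, the region at chr1:202067009-202067746, 50.2 kb from ELF3, was open in no BT474 and 19 BT474R libraries, and that at chr20:56689040-56691385, 50.9 kb from TFAP2C, was open in all 40 with medians of 98.0 in BT474 and 93.3 in BT474R. Within 10 kb of the genes there were 13 presence calls, and 25 of the 30 regions tested by rank were called, against 46 of 53 in the whole window.

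Ligand comparisons were made within a line against the vehicle control of the same times, with the difference averaged over 1, 12 and 24 h. EGF and HRG shared these controls, so that their values stand side by side and are not independent. In EGF-BT474, 13 of the 53 regions open in all libraries differed from control, 11 higher and 2 lower, where 14.4% of all regions tested were higher and 0.342% lower. The excess of higher calls was not kept on other scales, with 7 higher and 8 lower on the log2 score and 7 and 4 with equal numbers of top peaks. The median difference was 0.32 points over the members and 0.71 points over all regions. In HRG-BT474, 13 differed, 8 higher and 5 lower, against 10% and 2.57% of all regions, and the split was 7 and 7 with equal numbers of top peaks and 5 and 7 without the 12 h libraries, with medians of -0.39 and -0.13 points.

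In BT474 the ELF3 locus held more ligand calls than any other of the loci. With EGF, 6 of its 8 tested regions were higher, of 13 calls in all, and with HRG 5 of 8, also of 13. Region 6, next to the 3′ end of ELF3, stood at 97.0 to 97.6 in the 6 control libraries with a median of 97.4, at 98.0 to 98.9 with EGF and at 97.8 to 98.9 with HRG, so that neither ligand overlapped control. The differences were 1.11 ± 0.09 points for EGF (adjusted p = 1.7e-08) and 1.12 ± 0.09 points for HRG (adjusted p = 1.38e-08). Region 8 stood at 82.1 to 85.7 with a median of 83.7 in control, at 85.6 to 89.9 with a median of 88.3 with EGF (4.42 ± 0.49 points, adjusted p = 7.33e-07) and at 86.7 to 89.2 with a median of 88.3 with HRG (4.38 ± 0.49 points, adjusted p = 7.95e-07). Region 11, the outermost, stood at 75.9 to 80.8 in control, at 82.0 to 89.3 with EGF and at 83.2 to 88.3 with HRG, with differences of 6.83 ± 0.97 points (adjusted p = 1.87e-05) and 6.29 ± 0.97 points (adjusted p = 5.37e-05). The ELF3 promoter itself, region 4, was not called with either ligand. Baseline libraries of BT474, which were starved and never given vehicle, stood at 98.2 and 98.3 at region 6, above the controls, and at 81.4 and 82.1 at region 8, at the low end of the controls or below. Regions 6 and 11 with EGF, and 6, 8 and 11 with HRG, were the calls that held under the 8 settings in which they were tested and without each library.

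**Figure D4:**
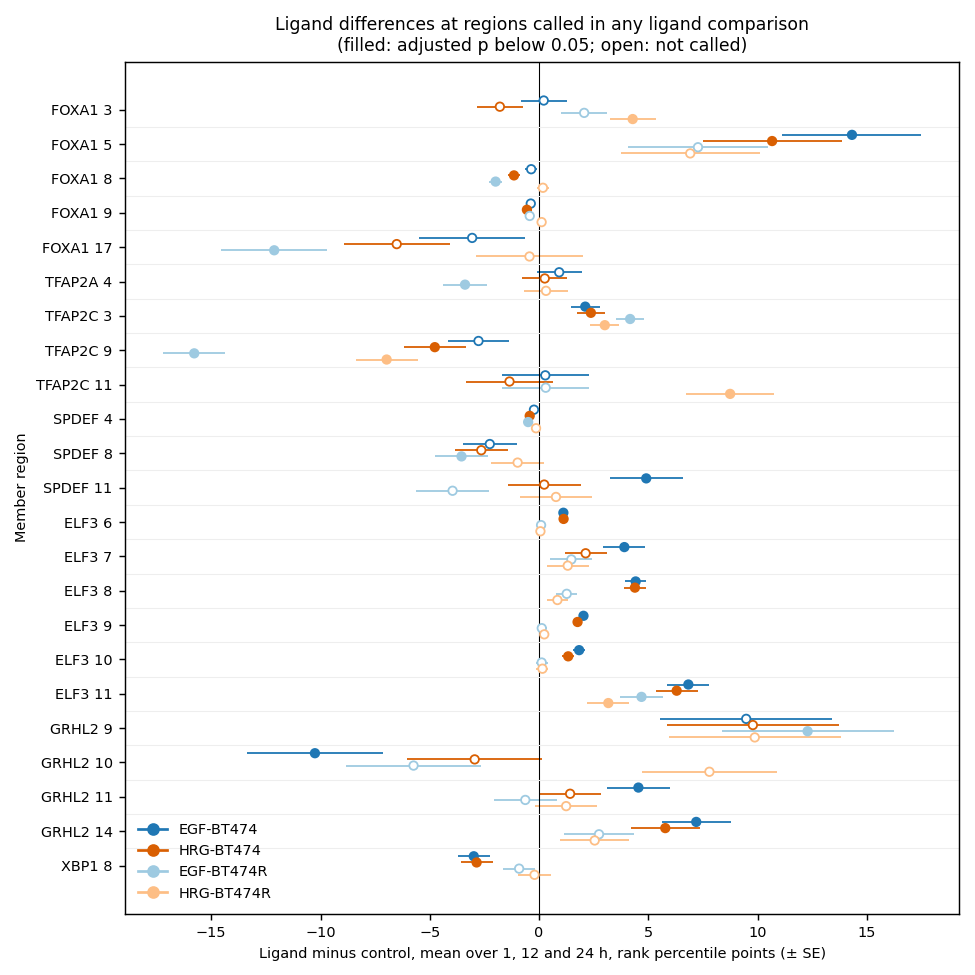
Rows are the member regions called in at least 1 ligand comparison, and the x axis gives ligand minus control in rank percentile points, averaged over 1, 12 and 24 h (± SE), with filled points for adjusted p under 0.05. The ELF3 rows lie above 0 for both ligands in BT474, and TFAP2C region 9 lies farthest below 0, for EGF-BT474R.

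Outside ELF3, FOXA1 region 5, the region 29.0 kb from the gene that was higher in BT474R, also moved with ligand in BT474. It stood at 25.6 to 46.0 in control with a median of 43.6, at 50.4 to 57.5 with EGF and at 28.5 to 65.4 with HRG, and its difference was 14.3 ± 3.18 points for EGF (adjusted p = 0.00242) and 10.7 ± 3.18 points for HRG (adjusted p = 0.0265). EGF did not overlap control and HRG did. The 2 baseline libraries stood far apart, at 60.5 and 36.8, and on the score per base neither ligand was called (adjusted p = 0.427 and 0.235). The XBP1 promoter, region 8, was lower with both on average over the times. It stood at 87.2 to 92.1 in control, at 82.95 to 89.6 with EGF and at 79.3 to 92.2 with HRG. The differences were -2.99 ± 0.74 points (adjusted p = 0.00587) and -2.86 ± 0.74 points (adjusted p = 0.00947). Its means in control, EGF and HRG were 87.3, 83.3 and 80.4 at 1 h. At 12 h they did not fall, at 89.1, 89.4 and 89.4, and at 24 h they were 92.0, 86.8 and 90.1. Neither call was kept by limma on the logit of the percentile (adjusted p = 0.482 and 0.647). On the score per base the EGF value was 0.0094 points and the HRG value -4.77 points (adjusted p = 0.721). The HRG call was also lost on the log2 score (adjusted p = 0.0994). GRHL2 region 14, an intronic region, was higher with EGF by 7.19 ± 1.58 points (adjusted p = 0.00225) and with HRG by 5.77 ± 1.58 points (adjusted p = 0.0152). GRHL2 region 10 was lower with EGF by -10.3 ± 3.10 points (adjusted p = 0.0251), a difference carried by 1 h, where it was -32.7 points (adjusted p = 0.0014). On the score per base, GRHL2 region 14 with EGF turned to -1.78 points and neither GRHL2 region was called.

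Several calls in BT474 lay near the threshold and were lost when any of several libraries was left out. With EGF, the calls of SPDEF region 11, GRHL2 region 11 and TFAP2C region 3 were each lost without each of 10 libraries, 1 at a time, and that of GRHL2 region 10 without each of 7, where its difference was -8.71 to -10.3 points. With HRG, FOXA1 region 5 and TFAP2C region 9 were lost without each of 7 libraries, 1 at a time, FOXA1 region 9 without each of 9 and GRHL2 region 14 without each of 4, where its difference was 4.63 to 5.12 points. The HRG call of XBP1 region 8 was lost without HRG 12 h replicate 1 or HRG 24 h replicate 2 (adjusted p = 0.0508 and 0.051), and that of TFAP2C region 3 without HRG 24 h replicate 2 (2.07 points, adjusted p = 0.0662). Leaving out HRG 24 h replicate 2 brought the number of HRG-BT474 calls from 13 to 8.

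By time, the members called in EGF-BT474 numbered 4 at 1 h, 5 at 12 h and 10 at 24 h, where 1.85%, 6.43% and 11.2% of all regions were called. In HRG-BT474 they numbered 12, 4 and 7, against 7.03%, 6.18% and 8.15%. At 1 h of HRG, 11 of the 12 were lower: 4 at SPDEF, 4 at XBP1, 2 at FOXA1 and ELF3 region 10, with ELF3 region 8 alone higher. The median HRG difference at 1 h was -1.31 points over the members and -0.18 points over all regions. Without HRG 1 h replicate 1, the calls of HRG-BT474 over the 3 single times came to 15 in place of 23. At 24 h, all 7 HRG calls were higher and 5 of them were at ELF3, and FOXA1 region 5 stood at 57.0 and 65.4 with HRG against 25.6 and 31.1 in control (32.9 points, adjusted p = 0.0003).

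In EGF-BT474R, 9 of the 53 regions differed from control, 3 higher and 6 lower, where 11.1% of all regions were higher and 6.04% lower. On the log2 score 3 were higher and 13 lower. The medians were -0.44 points over the members and -0.08 points over all regions. TFAP2C region 9, downstream of the gene (chr20:56668680-56669629), had the largest change. In control-BT474R it stood at 82.4 and 79.5 at 1 h, at 70.3 and 71.7 at 12 h and at 74.2 and 74.1 at 24 h. With EGF it stood at 80.6 and 81.0 at 1 h, at 51.1 and 45.5 at 12 h and at 54.4 and 44.9 at 24 h. The drop was therefore seen at 12 and 24 h and not at 1 h, and every later EGF library lay below every control. The difference over the 3 times was -15.8 ± 1.42 points (adjusted p = 4.99e-08), being -0.19 points at 1 h, -22.7 points at 12 h and -24.5 points at 24 h. HRG-BT474R stood between them, at 63.6 and 63.0 at 12 h and at 62.6 and 60.9 at 24 h, and the baseline libraries at 78.8 and 77.7.

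On the other side of the TFAP2C gene, region 3 (chr20:56605693-56607469) stood at 84.8 to 96.4 with a median of 90.5 in control-BT474R and at 92.5 to 97.6 with a median of 95.4 in EGF-BT474R, and rose by 4.16 ± 0.66 points (SE, adjusted p = 6.93e-05). The TFAP2C promoter was not called in any ligand comparison. ELF3 region 11 rose by 4.68 ± 0.97 points (SE, adjusted p = 0.00114). These calls and that of TFAP2C region 9 held under the 8 settings in which they were tested and without each library. FOXA1 region 17, an upstream region within TTC6, stood at 50.3 to 68.9 in control and at 25.8 to 65.6 with EGF and fell by 12.1 ± 2.43 points (SE, adjusted p = 0.000906), and FOXA1 region 8 fell by 1.99 ± 0.28 points (SE, adjusted p = 1.89e-05), most at 1 h, where it was 90.2 and 91.1 with EGF against 93.6 and 94.4 in control. On the score per base, FOXA1 regions 17 and 8 had adjusted p of 0.664 and 0.0501. SPDEF regions 4 and 8 and TFAP2A region 4 were lower by -0.50, -3.55 and -3.39 points, and GRHL2 region 9 was higher by 12.3 points. The calls of GRHL2 region 9, SPDEF region 8 and TFAP2A region 4 were lost without each of 7, 8 and 4 libraries, 1 at a time. By time the member calls numbered 3, 7 and 4 at 1, 12 and 24 h, where 1.31%, 12% and 12.7% of all regions were called.

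**Figure D5:**
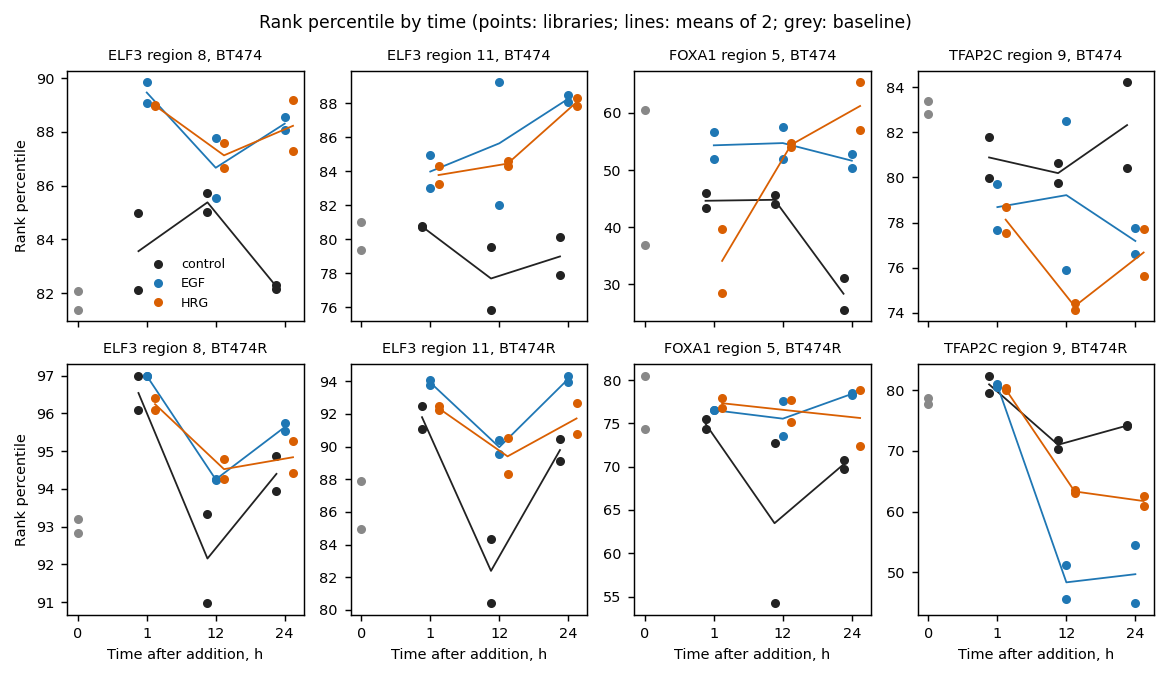
The rank percentile of ELF3 regions 8 and 11, FOXA1 region 5 and TFAP2C region 9 is plotted by hours after addition in BT474 (top) and BT474R (bottom), with points for libraries, lines for means of 2 and grey points for baseline. In BT474R the TFAP2C region 9 values lie between 44.9 and 54.4 with EGF at 12 and 24 h, while control lies between 70.3 and 82.4.

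In HRG-BT474R, 5 of the 53 regions differed from control, 4 higher and 1 lower, where 13.1% of all regions were higher and 0.0795% lower. They were TFAP2C region 9 (-6.98 ± 1.42 points, adjusted p = 0.00186), TFAP2C region 3 (3.01 ± 0.66 points), TFAP2C region 11 (8.74 ± 2.00 points), FOXA1 region 3 (4.28 ± 1.06 points) and ELF3 region 11 (3.17 ± 0.97 points). None held under every setting. No member was called without the 12 h libraries, and the higher calls were lost on the log2 score, with 0 higher and 3 lower by limma, and with equal numbers of top peaks, with 0 higher and 1 lower. The median over all regions was 4.68 points at 12 h, the time of the short control lists, and 0 members were called by limma at 1 h (1 at an unadjusted p under 0.05), 9 at 12 h and 1 at 24 h, against 0%, 22.4% and 1.45% of all regions. Without control-BT474R 12 h replicate 1, 3 regions were called in place of 5, FOXA1 region 3 no longer among them (3.52 points, adjusted p = 0.0513), without its replicate 2 there were 12, and without HRG 24 h replicate 2 there were 9. The call of ELF3 region 11 was lost without each of 7 libraries, 1 at a time.

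The effect of EGF differed between the lines at 7 of the 53 member regions and that of HRG at 4, where 3.04% and 1.56% of all regions differed. Region 6 of ELF3 rose less in BT474R than in BT474, by -1.02 points with EGF (adjusted p = 8.86e-05) and by -1.06 points with HRG (adjusted p = 4.65e-05), and it stood at 99.4 to 99.8 in all BT474R libraries, against the ceiling of the scale. On the logit of the percentile, which spreads the top of the scale, its EGF difference had an adjusted p of 0.0952 and its HRG difference one of 0.0451. TFAP2C region 9 fell more in BT474R with EGF, by -13.01 points (adjusted p = 0.000565; 0.01 on the logit and 0.0241 on the log2 score), but was not called without the 12 h libraries (adjusted p = 0.125) or on the score per base (adjusted p = 0.117). On the log2 score it was the only 1 of the 7 EGF differences still called.

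The presence of a peak was compared between ligand and control with 6 libraries each, where even a full separation had to pass an adjustment over 21750 to 31538 regions. No member was called, and 0% of all regions were called with Fisher's exact test in EGF-BT474, HRG-BT474, EGF-BT474R and HRG-BT474R. At an unadjusted p under 0.05, 2 of 23 members were open in more libraries in EGF-BT474, 3 of 31 in HRG-BT474, 0 of 31 in EGF-BT474R and 1 of 30 in HRG-BT474R, and none in fewer. The shares of all regions open in more were 3.79%, 4.18%, 0.793% and 0.49%, and in fewer 0.143%, 0.983%, 0.0888% and 0%. GRHL2 region 18, downstream of the gene within NCALD, was open in 0 of 6 control, 6 of 6 EGF and 6 of 6 HRG libraries of BT474 (exact p = 0.00216 for each, adjusted p = 0.162 and 0.115). Adjusted over only those regions that could reach an unadjusted p under 0.05, its adjusted p by the same exact test was 0.0335 and 0.0241. Every region with the same full separation has the same p and passes together with it, and the share of all regions that did so is not given here. It ranked low where open in BT474, with a median of 12.0, and in BT474R it was open in 3 control, 6 EGF and 6 HRG libraries. TFAP2C region 2, upstream of that gene, was open in 0 of 6 control, 5 of 6 EGF and 5 of 6 HRG libraries of BT474, in neither baseline library and in no BT474R library (exact p = 0.0152 for each ligand). GRHL2 region 1 was open in 0 control and 5 HRG libraries of BT474, and ELF3 region 1 in 1 control and 6 HRG libraries of BT474R (exact p = 0.0152 each).

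Motifs were counted in the member regions and in all regions. In the central 300 bp, a forkhead motif was found in 11.65% of the members and 9.637% of all regions, a GATA motif in 17.48% and 14.2%, an AP-2 motif in 25.24% and 21.66%, an ETS family motif in 9.709% and 9.201% and a bZIP motif in 5.825% and 4.374%. The grainyhead motif (AACCGG) was in 0.9709% of the members, 1 region, and in 5.14% of all regions. The median GC content was 49.33% and 50.67%. Promoters taken alone differed more: a GATA motif was in 5 of the 24 member promoters (20.83%) and in 5.517% of all promoter regions, an ETS family motif in 12.5% and 20.57%, and the median GC content was 58.33% and 65%. With so few member promoters these shares are a description with no test.

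Among promoters open in all 40 libraries, the one of another gene whose group means over the 20 groups were most like each member's was taken from 11273 candidates as a description. The GATA3 promoter was most like that of SPDL1 (Spearman's rho 0.9579) and 28.4% of the candidates were above 0.8. The ELF3 promoter was nearest to PUM2 (0.9684), SPDEF to IER5L (0.9414), XBP1 to IL27 (0.9353), GRHL2 to RBM4 (0.9338), TFAP2C to TMEM128 (0.9248) and TFAP2A to SERPINB1 (0.8496), a gene of the same chromosome. For FOXA1 the nearest was TTC6, whose start lies in the same open region, at 1.0.

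The promoters of 27 other luminal and epithelial factors gave the companion view. Of these, 22 were open in all 40 libraries, TFAP2D in none and 4 in some. Of 20 tested for rank, 4 were higher and 11 lower in BT474R, where 32.6% of all regions tested were higher and 50.2% lower. CITED1 (18 and 6 libraries) and FOXA2 (13 and 3) were open in fewer BT474R libraries, as were 31.1% of all regions that varied, with 18.9% open in more. These shares are of all regions and not of promoters alone. The promoter of PGR, the progesterone receptor, fell by 5.69 points from a median of 99.8 to 95.1, and that of EHF, an ETS factor related to ELF3, fell by 13.6 points from 95.1 to 83.1. GATA2, the relative of GATA3, fell by 9.87 points from 99.3 to 93.4. The grainyhead gene GRHL1 was higher by 1.98 points and GRHL3 lower by -4.35 points.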

How the data were processed

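Chromatin accessibility was measured by Omni-ATAC in 40 libraries, 2 in each of 20 groups of 2 cell lines. According to the study's methods and processing notes, the authors trimmed reads with Trim Galore 0.6.6, used BBMap to map them to GRCh38.p13, samtools for sorting and Genrich for calling peaks, 1 library at a time, without mitochondrial reads and blacklisted regions. Genrich's options, such as its ATAC mode, which can change peak widths and numbers, were not given in the sources used here. The authors deposited a score for each peak, the area under its significance curve, and the lowest score in the lists was 200, so that weaker peaks were not listed. The score depends on the depth of its library, and read counts were not analysed here, so that the study's count-based differential analysis was not repeated.

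From these lists, regions were built and assigned with GENCODE release 44 on the same build (GRCh38), with promoters defined as within 1000 bp of an annotated start. Presence was compared by two-sided Fisher's exact test (20 libraries of each line, or 6 of each arm). Rank percentiles were compared with limma 3.58.1 (R 4.3.3) on 20 group means with a trended variance, fitted over all 25166 regions open in 40 libraries. All p-values were adjusted by Benjamini-Hochberg within each contrast. Both tests were tested on simulated data. Scripts used Python 3.11.15 with pandas 2.3.3 and scipy 1.17.1.

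Groups came from the sample labels. The member genes, the companion and marker lists and the tests were chosen with earlier results of these data known. The regions named were, for each gene, the highest-ranking promoter and distal region, up to 3 regions in each direction of each test by smallest p, and the regions with the largest difference in open libraries between the lines. Other regions in the text were chosen after their values were seen. Alternatives were a score of at least 400, equal numbers of top peaks (32479), peaks trimmed to 400 bp, 50% of the region covered, regions in at least 4 libraries, a 10 kb window, a logit or log2 score in place of the percentile, 0 where no peak was listed, no 12 h libraries, a replicate block and each library left out. The rank of the score per base, the line difference in baseline and control groups only and the adjustment over regions that could be called were added after seeing the data. The values of some genes of the companion and marker lists and some sequences are not reported here.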

Additional observations from a re-analysis of the deposited data

Results flagged for a closer look

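Within the groups of 6 libraries of an arm and line, 54 sets of values, those of the main promoters among them, were examined for a library standing apart. Dixon's criterion was used, which chance meets in about 1 of 20 sets, and 3 sets met it, all of main promoters. The GRHL2 promoter stood at 99.734 in control-BT474 1 h replicate 2, where it had a joined peak, above the other control libraries. The GATA3 promoter stood at 93.759 in EGF-BT474 12 h replicate 1, the only EGF library of BT474 with 1 joined peak of 1570 bp there. The FOXA1 promoter stood at 99.714 in control-BT474R 12 h replicate 1, the library with the shortest list.

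The effect of a ligand differed between the lines at 11 pairs of region and ligand by the interaction term of limma, each given as the ligand effect in BT474R minus that in BT474. With EGF the differences were -1.02 points at ELF3 region 6, -3.1548 at ELF3 region 8, -1.9085 at ELF3 region 9, -1.7133 at ELF3 region 10, -8.8608 at SPDEF region 11, -1.6275 at FOXA1 region 8 and -13.007 at TFAP2C region 9. With HRG they were -1.0596 at ELF3 region 6, -3.546 at ELF3 region 8, -1.5239 at ELF3 region 9 and 6.0768 at FOXA1 region 3. On the logit of the percentile, SPDEF region 11 (adjusted p = 0.0431) and TFAP2C region 9 (adjusted p = 0.01) with EGF and ELF3 region 6 (adjusted p = 0.0451) with HRG were still called and the other 8 were not. On the score per base, SPDEF region 11 (-37.6 points, adjusted p = 0.00396) was called and the other 10 were not. On the log2 score, TFAP2C region 9 (adjusted p = 0.0241) was the only EGF difference still called, with SPDEF region 11 at 0.0547 and ELF3 region 6 at 0.626, and ELF3 regions 6, 8 and 9 were with HRG. With equal numbers of top peaks, SPDEF region 11 (adjusted p = 0.063) and FOXA1 region 8 (0.0694) with EGF and FOXA1 region 3 (0.153) with HRG were not called. Without the 12 h libraries the EGF differences at TFAP2C region 9, SPDEF region 11 and FOXA1 region 8 had adjusted p of 0.125, 0.288 and 0.139, and the HRG differences at ELF3 region 9 and FOXA1 region 3 had 0.053 and 0.374.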

How the results depend on the processing

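Between the lines, the 26 presence calls became 13 with a score of at least 400, 14 with equal numbers of top peaks and 13 within 10 kb. The 46 rank calls became 25 within 10 kb, of 30 regions tested there, and 90 with a percentile of 0 where no peak was listed. Low-ranking regions with no peak left under a setting, such as GATA3 region 1 and SPDEF region 3, could not be called there. Adjusting over regions that could be called gave 1 presence call in EGF-BT474 and 1 in HRG-BT474 in place of none. All regions of the whole set with the same full separation are called with it, and their share is not given here. In EGF-BT474, 13 rank calls became 6 within 10 kb, 23 with 0 for no peak and 2 on the score per base, and the single-time calls 9, 32 and 3. In HRG-BT474 these settings gave 6, 24 and 3, and at single times 9, 39 and 3, with 15 on the logit. In EGF-BT474R, 9 calls became 5 within 10 kb, 16 on the log2 score, 14 with 0 for no peak and 4 per base, and at single times there were 5 within 10 kb, 23 with 0 for no peak, 9 with equal numbers of peaks and 7 per base. In HRG-BT474R, 5 calls became 0 within 10 kb, 3 on the log2 score, 0 without 12 h, 1 with equal numbers of peaks and 2 per base, and at single times 2, 4, 2 (equal numbers) and 2 (per base). Of the single-time calls, those of HRG-BT474R were 8 higher and 2 lower but 0 and 4 on the log2 score. For the smaller window and the 0 values the number of regions tested changed by construction; elsewhere the cause was not tested.

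Leaving out 1 library gave 26 to 29 presence calls and 45 to 47 rank calls between the lines, 0 to 0 presence calls with ligands, and 9 to 13 rank calls in EGF-BT474, 8 to 13 in HRG-BT474, 6 to 13 in EGF-BT474R and 3 to 12 in HRG-BT474R. At single times the ranges were 14 to 20, 15 to 25, 10 to 18 and 2 to 19. In HRG-BT474R the single-time count was 2 without control 12 h replicate 1, 19 without its replicate 2 and 4 without HRG 12 h replicate 1.

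Differences between the lines that changed direction on the score per base were those of ELF3 region 2 (-7.25 points), region 4 (-0.8076) and region 7 (-2.791), SPDEF region 6 (-6.451), GRHL2 region 7 (1.07), region 11 (1.922) and region 14 (2.076), and XBP1 region 12 (-4.68). SPDEF region 2 turned to 1.98 points with equal numbers of peaks, 0.07838 on the log2 score and 0.1962 points without 12 h, and GRHL2 region 10 to 0.04538 on the log2 score and 1.04 points without 12 h. With ligands, reversals on the score per base were GRHL2 region 14 (-1.783) and XBP1 region 8 (0.009383) in EGF-BT474, TFAP2A region 4 (0.5486) and SPDEF region 8 (1.007) in EGF-BT474R and TFAP2C region 11 (-12.81) in HRG-BT474R.

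In baseline and control groups only, which was added after seeing the data, the calls between the lines of ELF3 region 2 (1.59 points, adjusted p = 0.0862), TFAP2A region 2, SPDEF region 10 (-3.39, 0.113) and FOXA1 region 17 (-3.31, 0.16) were lost.

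Replicates shared only a number: over 190 pairs of groups the correlation of same-numbered deviations had a median of 0.003 (from -0.311 to 0.575). With the replicate block, the lines gave 26 presence and 46 rank calls, no ligand gave a presence call, and the rank calls numbered 13 in EGF-BT474, 12 in HRG-BT474, 9 in EGF-BT474R and 5 in HRG-BT474R, with 20, 24, 14 and 10 at single times. Depth could not be assessed without read counts.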
